A study of Mus musculus with 4 samples.

Results

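The enzymes described here build long and highly unsaturated fatty acids, and they comprise the 3 front-end desaturases Fads1, Fads2 and Fads3 and the 7 fatty acid elongases Elovl1 to Elovl7. They were chosen by name, taking every probe other than controls whose gene name was one of these symbols, and all 10 were measured, among 24637 genes and named features tested. The samples were primary hepatocytes of mice labelled bl6, grown with 10% serum and then kept overnight in 0.5% serum. Both groups received 5 µM simvastatin, a statin that blocks cholesterol synthesis, and 100 µM mevalonic acid, the product of the blocked enzyme. The 2 control cultures, DMSO a and DMSO b, received the solvent, and the 2 treated ones, GW3965 a and GW3965 b, received GW3965 at 1 µM, a small molecule that activates the liver X receptors (LXR). The scan names shorten the treatment to GL where the sample titles have GW, and the labels do not explain it. Each sample was 1 single-colour Agilent array, and nothing in the labels says that the replicates came from separate animals, so the p-values measure the spread between these arrays, which may be technical.

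Mammals take linoleic and alpha-linolenic acid from the diet and lengthen and desaturate them in the endoplasmic reticulum. Fads2 places the first new double bond, Elovl5 adds carbons, Fads1 places the next double bond, and Elovl2 carries the chain on towards docosahexaenoic acid. Most of the remaining elongases act on saturated and monounsaturated chains, and in the liver this network serves membrane phospholipids, exported lipoproteins and lipogenesis. LXR is a nuclear receptor activated by oxysterols that induces cholesterol export genes and Srebf1, which encodes a transcription factor of lipogenic genes.

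The members were read by 14 probes of 60 bases, and each detected level below is a log2 intensity relative to the 75th percentile of its own array. Fads2 and Elovl1 are shown by the first 30 bases of their probes, because the probe chosen to stand for either gene sets the size or the sign of its difference.
Fads2, brighter probe: tttagctgttgtgttaacatttcctacaga
Fads2, dimmer probe: agctggatggctgcaacatgactatggcca
Elovl1, brighter probe: ggcctggaagtcaggctgtgcgctcacttg
Elovl1, dimmer probe: attgcccacctaagtgcctcaggactgcac

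On the mm9 build named in the file headers, the brighter Fads2 probe lies at chr19:10137760-10137819 and the dimmer one at chr19:10163229-10163288. Both are on the minus strand and 25409 bases apart, so the brighter one is downstream. The Elovl1 probes lie on the plus strand at chr4:118105163-118105222 for the brighter one and chr4:118104741-118104800 for the dimmer one, 362 bases apart. Whether a probe falls in coding sequence or in a UTR was not analysed here.

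Fads2, Fads1 and Elovl5, which act with Elovl2 in the route described above, were the 3 members whose GW3965 arrays both lay above both DMSO arrays. Their mean differences were 0.75, 0.33 and 0.26 on the log2 scale. The other 7 members overlapped between the groups, and 0 lay wholly lower with GW3965. Over all genes tested, 9.41% lay wholly higher and 6.55% wholly lower. No member passed an adjusted p of 0.05 in limma (Benjamini-Hochberg over all genes), as did 0% of all genes in either direction. At an unadjusted p under 0.05 in limma the count was 1 member, Fads2, which was higher, against 0.645% of all genes higher and 0.179% lower. The median difference of the 10 members was -0.07, and that of all genes was -0.006. The mean was higher with GW3965 for 4 members and lower for 6, where 48.5% of all genes had a higher mean. The members' median changed sign when any 1 array was left out. It was 0.03 without DMSO a, 0.26 without DMSO b, 0.30 without GW3965 a and 0.03 without GW3965 b. Such a comparison is unbalanced, so part of the gap between replicates a and b enters each difference.

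**Figure D1:**
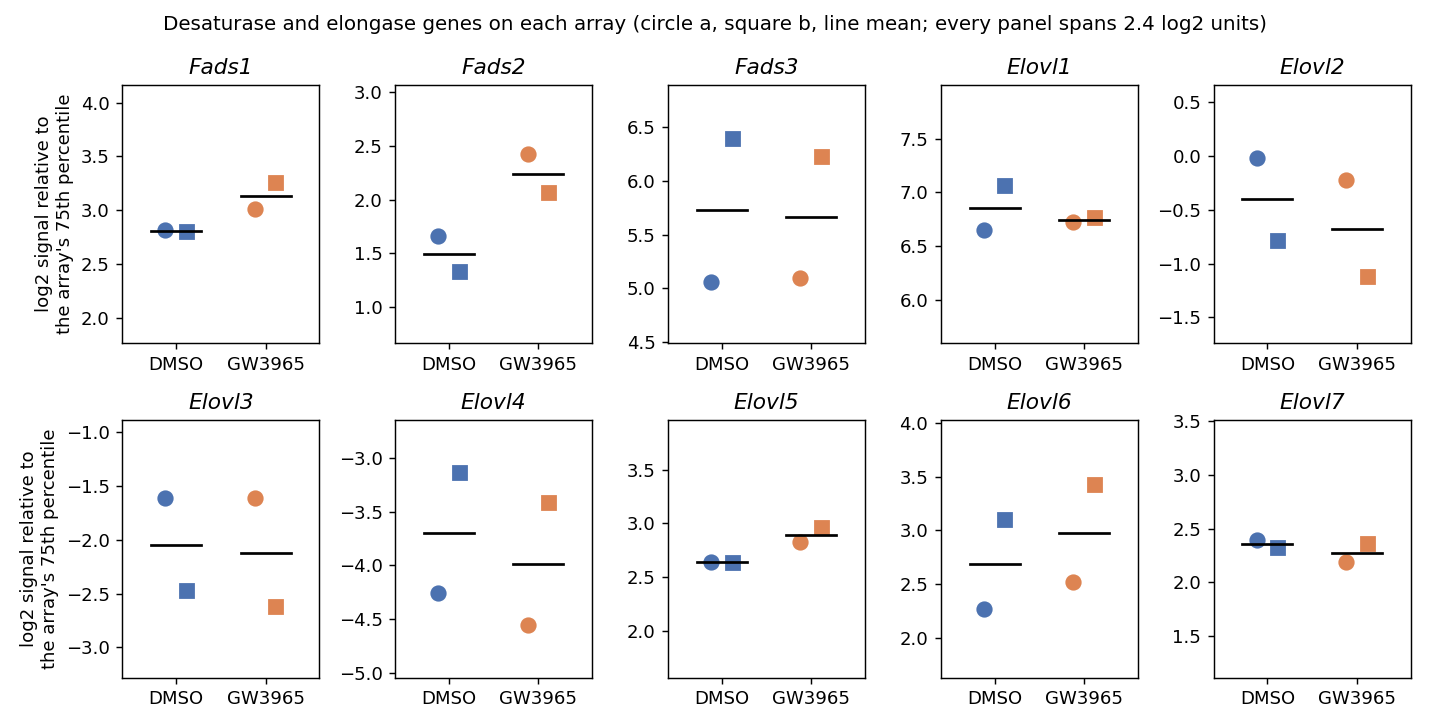
Log2 level of each member on each array relative to that array's 75th percentile, for the probe that stands for the gene; each point is 1 array, with DMSO and GW3965 in separate colours. The GW3965 points of Fads2, Fads1 and Elovl5 lie above both DMSO points, and those of Fads3, Elovl2, Elovl3, Elovl4 and Elovl6 spread as widely as their DMSO points.

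Fads2 encodes the desaturase that opens the pathway from both dietary precursors. Its level was 1.66 on DMSO a and 1.32 on DMSO b, and 2.42 on GW3965 a and 2.06 on GW3965 b. Every treated array was above every control, and the difference was 0.75 ± 0.24 (SE, n = 2 per group), or 1.68-fold. Its 95% interval in limma ran from 0.11 to 1.38, with an unadjusted p of 0.0294 and an adjusted p of 0.99999. With the replicate letter as a block in limma, the unadjusted p was 0.00126 and the adjusted p 0.336. The unadjusted p in limma was 0.154 without DMSO b, 0.142 without GW3965 a and 0.0596 with arrays centred on their median. The dimmer Fads2 probe read -0.58 and -0.22 on DMSO a and b, and -0.12 and 0.15 on GW3965 a and b. It too was higher on both treated arrays, by 0.42 ± 0.23 (SE, n = 2 per group), with an interval from -0.19 to 1.03 and an unadjusted p of 0.139 in limma. The probes ran opposite ways within a group, since the brighter one was lower on b in both groups and the dimmer one higher on b in both. With 2 arrays per group, the smallest two-sided p of an exact permutation test is 0.333 for any member.

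Fads1 encodes the desaturase that follows the Elovl5 step and yields arachidonic and eicosapentaenoic acid. Its probe at chr19:10270530-10270589 on the plus strand read 2.81 on DMSO a and 2.79 on DMSO b, against 3.01 on GW3965 a and 3.25 on GW3965 b. The groups did not overlap, but the 1.25-fold difference of 0.33 ± 0.20 (SE, n = 2 per group) had an interval from -0.19 to 0.84 and an unadjusted p of 0.160 in limma.

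Fads3 is the third gene of the same chromosome 19 cluster, and its enzyme acts on sphingoid bases. The probe at chr19:10132641-10132700 on the plus strand read 5.06 and 6.39 on DMSO a and b, and 5.10 and 6.22 on GW3965 a and b. Both b arrays stood far above both a arrays, while the group difference was -0.07 ± 0.59 (SE, n = 2 per group), with an interval from -1.62 to 1.49. A second, dimmer Fads3 probe at chr19:10134543-10134602, 1842 bases away, showed the same arrangement, with 1.72 and 3.24 on DMSO and 1.68 and 3.01 on GW3965.

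Elovl5 lengthens the product of Fads2. Its probe at chr9:77832205-77832264 on the plus strand read 2.64 and 2.63 on DMSO a and b, and 2.83 and 2.95 on GW3965 a and b. The control arrays nearly coincided and both treated arrays were above them, by 0.26 ± 0.18 (SE, n = 2 per group) or 1.19-fold. The interval ran from -0.22 to 0.74, with an unadjusted p of 0.225 in limma.

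Elovl2 lengthens the longer polyunsaturated chains made after Fads1. Its probe at chr13:41277884-41277943 on the minus strand read -0.02 and -0.79 on DMSO a and b, and -0.22 and -1.13 on GW3965 a and b. The treated array was below the control of the same letter both times. Each group had its lower value on replicate b. The groups overlapped, with a difference of -0.27 ± 0.43 (SE, n = 2 per group) and an interval from -1.39 to 0.84.

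Elovl6 lengthens palmitate to stearate and is a lipogenic gene known to respond to SREBP-1. Its probe at chr3:129341248-129341307 on the plus strand read 2.27 and 3.10 on DMSO a and b, and 2.52 and 3.43 on GW3965 a and b. The treated array was above the control of the same letter both times, but the replicates lay further apart than the groups. The difference of 0.29 ± 0.44 (SE, n = 2 per group), or 1.22-fold, had an interval from -0.86 to 1.43.

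**Figure D2:**
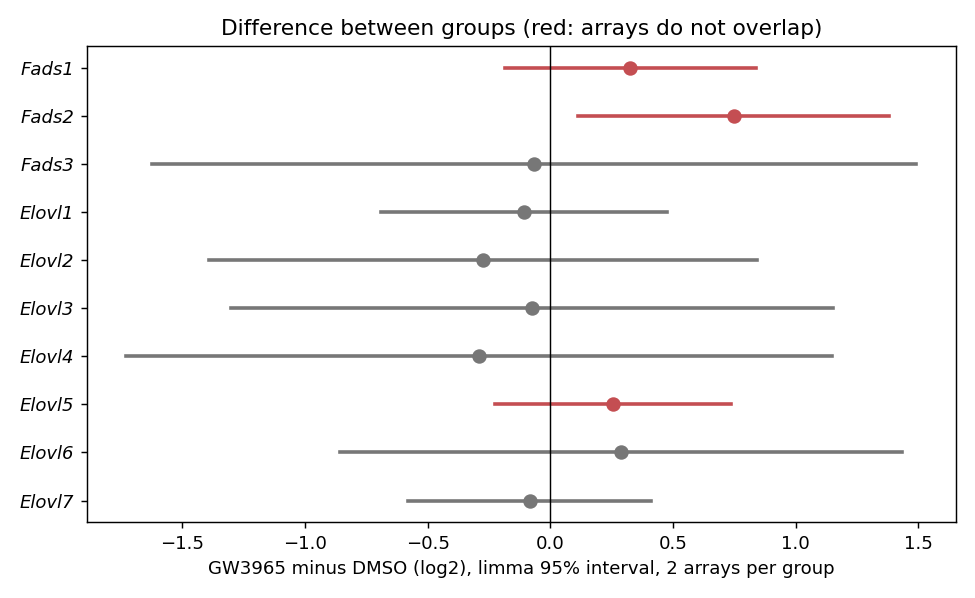
GW3965 minus DMSO difference (log2) of each member with its 95% interval from limma, for the probe that stands for the gene, n = 2 arrays per group. The interval of Fads2, 0.11 to 1.38, lies above 0, and the intervals of the other 9 members include 0.

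Elovl1 makes saturated and monounsaturated very long chains for sphingolipids. Its brighter probe read 6.65 and 7.06 on DMSO a and b, and 6.73 and 6.76 on GW3965 a and b. The treated arrays lay between the controls, with a difference of -0.11 ± 0.22 (SE, n = 2 per group) and an interval from -0.69 to 0.48. The dimmer Elovl1 probe had the opposite sign, at 3.29 and 3.54 on DMSO and 3.37 and 3.71 on GW3965, a difference of 0.13 ± 0.23 (SE, n = 2 per group).

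Elovl3, an elongase known from brown fat and skin, read -1.61 and -2.48 on DMSO a and b, and -1.61 and -2.62 on GW3965 a and b. Its probe is at chr19:46209762-46209821 on the plus strand. The a arrays matched each other and so nearly did the b arrays, and the difference was -0.07 ± 0.47 (SE, n = 2 per group), with an interval from -1.30 to 1.15.

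Elovl7, which acts on saturated long chains, read 2.39 and 2.32 on DMSO a and b, and 2.19 and 2.35 on GW3965 a and b. Its probe is at chr13:109073556-109073615 on the plus strand. All 4 arrays lay close together, and the difference of -0.08 ± 0.19 (SE, n = 2 per group) had an interval from -0.58 to 0.41. With arrays centred on their median instead of the 75th percentile, Elovl7 lay wholly lower with GW3965.

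Elovl4 makes the very long chains of retina and skin. Its better detected probe, at chr9:83673253-83673312 on the minus strand, read -4.26 and -3.14 on DMSO a and b, and -4.56 and -3.42 on GW3965 a and b. The treated array was below the control of the same letter both times. The groups overlapped, with a difference of -0.29 ± 0.55 (SE, n = 2 per group) and an interval from -1.73 to 1.15. A second Elovl4 probe, 548 bases away, was the 1 member probe of 14 that was not tested. It was well above background on 1 of 2 DMSO arrays and 0 of 2 GW3965 arrays, with intensities of 59.4 and 9.84 on DMSO a and b, and 9.24 and 7.70 on GW3965 a and b.

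For 5 of the members the gap between replicates a and b was larger than the largest difference of any member between the groups, 0.75 for Fads2, and it had the same direction in DMSO and in GW3965. Fads3 was higher on b by 1.33 within DMSO and by 1.12 within GW3965, Elovl4 by 1.12 and 1.14, and Elovl6 by 0.83 and 0.90. The Elovl4 probe was dim, and the other Elovl4 probe, which was not tested, had gaps the opposite way, at -2.75 and -0.67. Elovl2 had a b minus a gap of -0.77 within DMSO and -0.90 within GW3965, and Elovl3 one of -0.86 and -1.01. Fads1, Elovl5 and Elovl7, by contrast, had gaps of at most 0.24 in size in either group. Counting also Elovl1 and Fads2, 7 of 10 members had a gap of the same sign in both groups, where 75.1% of all genes did. A gap of over 1 log2 upward in both groups was found for 2 members, Fads3 and Elovl4, and for 1.88% of all genes.

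Markers of cell types differed between the same arrays. Hepatocyte markers were lower on b than on a in both groups for 10 of 10 genes, with a median gap of -0.84 within DMSO and -0.70 within GW3965. Macrophage and leukocyte markers were lower on b in both groups for 8 of 10, with median gaps of -0.55 and -0.81. Endothelial markers were higher on b in both groups for 6 of 8 measured genes, with median gaps of 0.54 and 0.73. Markers of stellate cells and fibroblasts were higher on b in both groups for 5 of 8 and lower for 2, with median gaps of 0.63 and 0.47. The summed level of this list went the other way, from 81.1 on a to 58.7 on b within DMSO and from 86.7 to 58.5 within GW3965. Dcn of this list, named after its values were seen, had gaps of -1.18 and -1.38. Elovl2 and Elovl3 had gaps of the same sign as the hepatocyte markers and the macrophage and leukocyte median. Fads3, Elovl4 and Elovl6 had gaps of the same sign as the endothelial median and sum and the stellate median, though not the stellate sum. Cholangiocyte markers, higher on b in both groups for 3 of 5 and lower for 1, also had medians of that sign, at 0.31 and 0.03. So did adipocyte markers, at 0.45 and 0.10, with 1 of 3 higher on b in both groups. The part of cell composition in these gaps was not tested, and in such bulk RNA fewer cells of a type and less RNA per cell cannot be told apart.

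**Figure D3:**
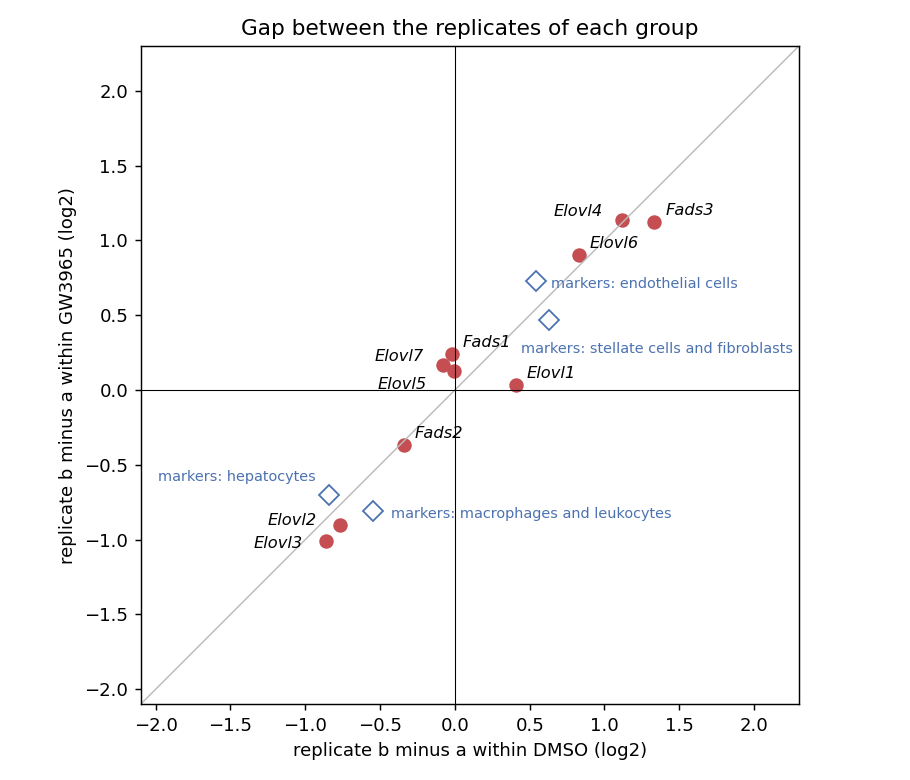
Log2 level on replicate b minus replicate a within DMSO (x axis) and within GW3965 (y axis) for the 10 members (filled points) and the medians of 4 cell type marker lists (open diamonds); the line marks equal gaps. Fads3, Elovl4 and Elovl6 lie at the upper right, beyond the endothelial and stellate medians, and Elovl2 and Elovl3 at the lower left near the hepatocyte and macrophage markers.

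Between DMSO and GW3965, 0 genes of any marker list passed the adjusted test in limma. Hepatocyte markers, 10 of 10 measured, had summed linear levels of 2496 and 1983 on DMSO a and b and of 2680 and 1687 on GW3965 a and b. Their median difference was -0.02, from Ass1 at 0.09 to Hnf4a at -0.25, so the labelled cell type had its defining transcripts on all 4 arrays. Macrophage and leukocyte sums were 58.7 to 71.9 with DMSO and 62.3 to 82.1 with GW3965, with a median difference of -0.04, from Cd5l at 0.71 to Adgre1 at -0.49. Endothelial sums were 39.6 to 52.2 and 41.9 to 55.1, with a median of 0.11, from Tek at 0.25 to Clec4g at -0.34. Stellate and fibroblast sums were 58.7 to 81.1 and 58.5 to 86.7, with a median of 0.15, from Pdgfrb at 0.39 to Reln at -0.27. Cholangiocyte sums were 62.6 to 76.2 and 57.4 to 63.9, with a median of -0.22, from Krt23 at 0.49 to Epcam at -0.53. Adipocyte sums were 4.91 to 6.69 and 5.71 to 7.08, with a median of 0.32, from Plin1 at 0.93 to Fabp4 at 0.15. Of these extremes 3 were not well above background on 1 array of a group, so their differences are uncertain: Plin1 and Reln on 1 of 2 DMSO arrays, and Epcam on 1 of 2 GW3965 arrays. Lrat of the stellate list, Krt7 of the cholangiocyte list and Adipoq of the adipocyte list were not detected well enough to be tested. The part of these cells in the differences of the members was not tested.

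Known LXR target genes were measured on the same arrays as controls of the agonist. Abca1, the cholesterol exporter, read 1.46 and 0.55 on DMSO a and b and 3.31 and 3.85 on GW3965 a and b, a difference of 2.58 ± 0.39 (SE, n = 2 per group) or 5.96-fold. Abcg1, another sterol exporter, differed by 1.98 ± 0.29. Lpcat3, which puts polyunsaturated chains such as those made by Fads1 and Fads2 into phospholipids, read 3.42 and 3.29 with DMSO and 4.26 and 4.54 with GW3965, 1.05 ± 0.21 higher. All 4 control genes of this list, Srebf1 included, lay wholly higher with GW3965, with a median of 1.61, and 0 of them passed the adjusted test in limma.

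Among 10 transcription regulators of the pathway, 0 passed the adjusted test, and the median difference was 0.03. Without DMSO a, DMSO b, GW3965 a or GW3965 b the median of the regulators was 0.15, -0.10, -0.11 or 0.15. Srebf1 read -0.96 and -0.72 on DMSO a and b and 0.37 and 0.43 on GW3965 a and b, and its difference of 1.24 ± 0.20 (SE, n = 2 per group) had an unadjusted p of 0.00181 in limma. Insig1, which retains SREBP precursors in the endoplasmic reticulum, was higher by 0.54 ± 0.25, and Mlxipl, encoding the carbohydrate-responsive factor ChREBP, differed by -0.21 ± 0.18. In this list 3 genes lay wholly higher and 2 wholly lower, where 9.41% and 6.55% of all genes did. Besides Srebf1, Insig1 and Mlxipl these were Rxra, at 0.14 ± 0.18, and Scap, at -0.10 ± 0.18.

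Among the other membrane desaturases are the stearoyl-CoA desaturases, which make monounsaturated fatty acids from saturated ones. Of the 4 measured, Scd1, Scd2 and Scd3 were higher on both treated arrays and Scd4 overlapped between the groups. Scd1 read 4.97 and 5.18 on DMSO a and b and 6.03 and 5.76 on GW3965 a and b, a difference of 0.82 ± 0.21 with an unadjusted p of 0.0130 in limma. Scd2 read 2.02 and 2.96 with DMSO and 3.41 and 4.65 with GW3965, a difference of 1.54 ± 0.54 and an unadjusted p of 0.0376. Scd3 read 0.39 and -0.12 with DMSO and 1.48 and 1.25 with GW3965, a difference of 1.23 ± 0.25 and an unadjusted p of 0.00543. Scd4 read -2.35 and -2.88 with DMSO and -2.22 and -2.95 with GW3965, a difference of 0.03. The list's median over 6 of 7 measured genes was 0.44, and 0 passed the adjusted test. That median was 0.25 with the mean of a gene's probes and 0.07 with no filter on dim probes. Leaving out DMSO a, DMSO b, GW3965 a and GW3965 b in turn gave 0.51, 0.67, 0.51 and 0.66. Degs2 was not detected well enough. The Scd genes are close copies, and whether a probe of one also reads another was not analysed here.

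The elongation cycle partners, which reduce and dehydrate the chain after an elongase has added its carbons, had a median of 0.01 over 6 of 7 measured genes. It was -0.01 without DMSO a, 0.06 without DMSO b, 0.14 without GW3965 a and 0.02 without GW3965 b. Tecr, the enoyl reductase of the last step, differed by 0.19 ± 0.20, Hacd4 by 0.22 ± 0.30 and Hacd3 by -0.13 ± 0.24 (SE, n = 2 per group), and Tecrl was not detected well enough. Cytochrome b5 and its reductases, which supply electrons to the desaturases, had a median of 0.06 over 6 of 6, with Cyb5a at -0.19 ± 0.29, Cyb5r4 at -0.11 ± 0.18 and Cyb5r3 at 0.09 ± 0.21. Leaving out 1 array gave a median of -0.09 (DMSO a), 0.13 (DMSO b), 0.09 (GW3965 a) or -0.10 (GW3965 b). Neither list had a gene past the adjusted test in limma.

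Peroxisomal chain shortening, the last step in making docosahexaenoic acid, had a median of -0.09 over 11 of 12 measured genes. With DMSO a, DMSO b, GW3965 a or GW3965 b left out it was 0.09, -0.30, -0.38 and 0.21. Its transporter gene Abcd3 differed by -0.17 ± 0.21, Crot by -0.23 ± 0.29 and Hsd17b4 by -0.14 ± 0.18, and Abcd2 was not detected well enough. The ceramide synthases, which use very long chains, had a median of -0.02 over 4 of 6, with Cers2 at 0.05 ± 0.25, Cers5 at -0.04 ± 0.30 and Cers6 at -0.05 ± 0.43. Without DMSO a, DMSO b, GW3965 a and GW3965 b in turn that median was -0.34, 0.31, 0.27 and -0.32. Cers3 was not detected well enough and Cers1 was not analysed here. In both lists 0 genes passed the adjusted test in limma.

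**Figure D4:**
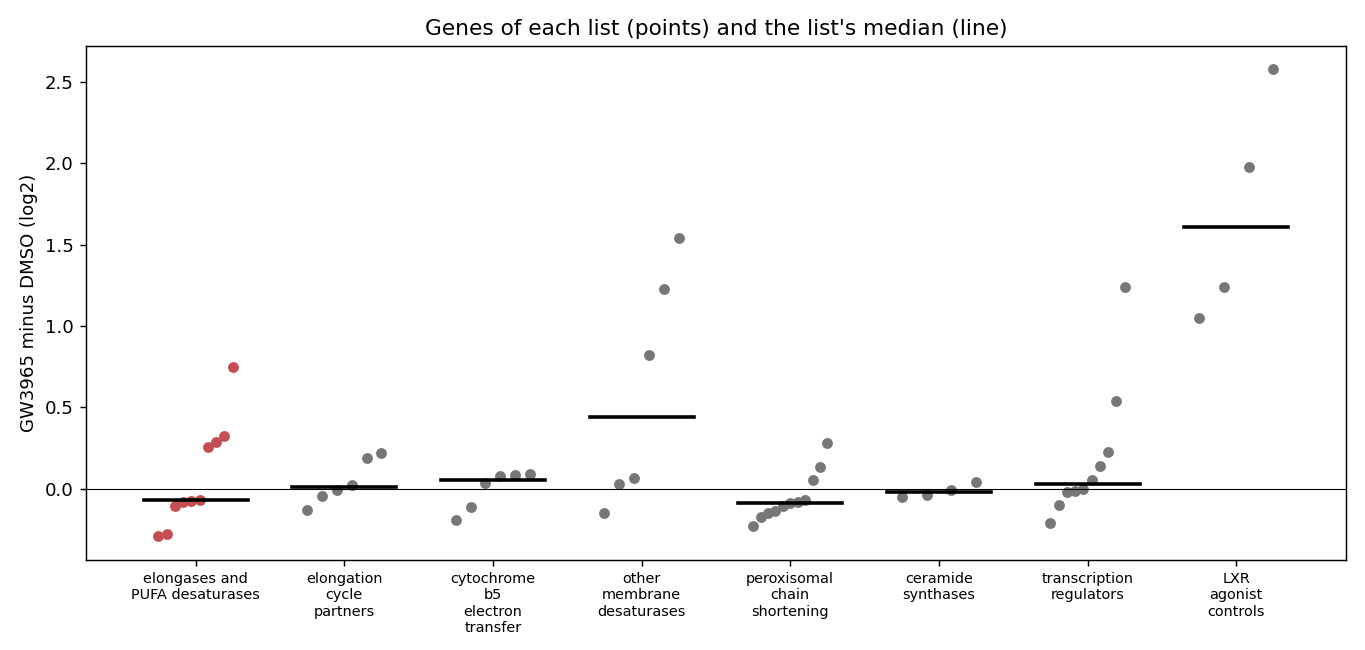
GW3965 minus DMSO difference (log2) of each measured gene (points) in the members and in 7 lists of pathway genes, with each list's median (line). The members lie around a median of -0.07 with Fads2 highest, the other membrane desaturases around 0.44 and the LXR agonist controls around 1.61.

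Promoter windows from RefSeq (GRCm38.p6, 250 bases before the start of transcription to 50 after it) were matched by symbol for 8 of the 10 members, in 10 windows, since Elovl1 and Elovl2 each have 2. Fads1 and Elovl3 had no window and were not searched. Fads2 and Elovl5 are shown because their arrays separated by group, as those of Fads1 also did. Each is given as the 250 bases before the start on its own strand. The Fads2 window is chr19:10101454-10101753 on the minus strand and the Elovl5 window chr9:77917115-77917414 on the plus strand. Capitals mark the E-box CACGTG and the CCAAT box, which reads ATTGG on this strand.
Fads2: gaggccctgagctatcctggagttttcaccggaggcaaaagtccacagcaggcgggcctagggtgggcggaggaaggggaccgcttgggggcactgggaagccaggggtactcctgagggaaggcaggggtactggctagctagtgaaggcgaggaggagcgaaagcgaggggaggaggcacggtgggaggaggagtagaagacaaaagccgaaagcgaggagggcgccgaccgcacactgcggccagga
Elovl5: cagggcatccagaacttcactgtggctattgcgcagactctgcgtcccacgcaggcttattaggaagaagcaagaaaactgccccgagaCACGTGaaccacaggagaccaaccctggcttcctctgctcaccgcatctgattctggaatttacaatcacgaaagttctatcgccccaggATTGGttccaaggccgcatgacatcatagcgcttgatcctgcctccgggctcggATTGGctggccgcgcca

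The Fads2 window held 67% G and C and none of the letters searched, and the Elovl5 window held 57.7% G and C, 1 E-box and 2 CCAAT boxes. Both strands were searched. The sterol regulatory element TCACNCCAC, the kind of site SREBP factors bind, was in 0 of the 10 windows, against 1.24% of all 32851 windows of the same length. An LXR element of AGGTCA repeated after a gap of 4 bases was in 0 of 10, against 0.0152% of all windows, and with 1 mismatch allowed in each repeat in 0 of 10 against 1.75%. CCAAT was in 4 of 10 windows, those of Fads3, Elovl4 and Elovl5 and 1 of Elovl1, against 37.4% of all. CACGTG was in 2 of 10, those of Elovl4 and Elovl5, against 7.15% of all. A match here is a description of letters, and no match says only that these letters are not in the window.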

How the data were processed

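Total RNA of 4 samples, 2 given DMSO and 2 given GW3965, was labelled with Cy3 on 4 single-colour arrays of Agilent design 028005. The deposited values are processed signal intensity on a linear scale, background-corrected by Feature Extraction 10.7.3.1 per the file headers; version 11.5.1.11 is given in the submitters' processing notes. The deposited table of values per array held the same intensity (largest difference 0 over 62976 spots). Between 62.5% and 69.1% of 55681 probes were well above background, and 0 spots were saturated; 4 arrays limit the precision. Other deposited columns used are the authors' flags for outlier, saturated and well-above-background spots.

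Outlier spots (83 to 141 per array) and control spots were left out, the spots of a probe were averaged on the log2 scale, and each array's 75th percentile was subtracted. Probes were kept if they were well above background on both DMSO arrays, both GW3965 arrays or all 4, and the brightest stood for its gene. RefSeq accessions named 26762 probes and the file 28919. The comparison used limma 3.58.1 under R 4.3.3 (data.table, version 1.17.8) without a block, two-sided, with Benjamini-Hochberg adjustment over all 24637 genes and a threshold of 0.05; 2 residual degrees of freedom were joined by a prior of 2.72. A probe fit on every kept probe gave the values of second probes. Figures used matplotlib 3.10.9 in Python 3.11.15. The fit was tested on simulated data whose arrays were drawn independently. Those data lack the gaps shared by arrays of the same letter, so the fit was not tested against such gaps.

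Members and lists were chosen with earlier results of these data known. Named were all members, of each pathway list the genes that passed or else the 3 with the smallest unadjusted p, Abca1, Abcg1, Srebf1 and, added after their values were seen, Lpcat3, and of each marker list its highest and lowest difference. Normalization, background correction, value source, dim-probe filter, choice of probe, variance prior, the replicate letter and each array were varied. A planned comparison of protein sequences was not run.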

Additional observations from a re-analysis of the deposited data

How the results depend on the processing

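Under all 15 alternatives 0 members and 0 pathway genes passed the adjusted test in limma, and Fads2, Fads1 and Elovl5 kept a higher mean with GW3965. The deposited value table, the intensity trend, the robust prior and the replicate block leave every difference as it was by construction. The 2 changes of the dim-probe filter also left those of the members unchanged, so no sign could change under these settings. Of 153 values of single members 14 changed sign, 2 of them for Elovl1, at 0.012 with the mean of its probes and 0.13 with its other probe, and the other 12 when 1 array was left out. Leaving out each array in turn gave ranges of -0.31 to 0.10 for Elovl1, -0.73 to 0.18 for Elovl2, -0.58 to 0.43 for Elovl3, -0.86 to 0.28 for Elovl4, -0.16 to 0.74 for Elovl6, -0.17 to 2.6e-05 for Elovl7 and -0.73 to 0.60 for Fads3. Fads1 ranged from 0.21 to 0.45, Fads2 from 0.56 to 0.93 and Elovl5 from 0.19 to 0.32. Without 1 array the members' median ran from 0.027 to 0.30. The members whose arrays did not overlap then numbered 5 to 9, with fewer arrays to overlap by construction. With 1 array left out, part of the gap between replicates a and b enters each difference. With arrays centred on their median, 1 member (Elovl7) lay wholly lower. Of 105 pathway medians 22 moved by at least 0.111, the SD between replicates of the members' median. That SD was used for every list and is not the replicate spread of the list itself. Genes at an unadjusted p under 0.05 in limma numbered 203, but 56 with normexp background correction, 536 without a filter, 94 with the filter on all arrays, 365 over single probes, 115 with an intensity trend and 416 without DMSO b, where 1 gene passed the adjusted test. The cause of these shifts was not tested.

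The replicate letters only share a name in the labels; deviations of same-lettered arrays correlated across genes at 0.72. With the replicate block, 15 of all genes passed the adjusted test and 1333 had an unadjusted p under 0.05 in limma. Fads2 then differed by 0.75 ± 0.13 (SE), with an unadjusted p of 0.00126 and an adjusted p of 0.336 in limma. The next smallest unadjusted p of a member was 0.0569 for Fads1, and the block changed no call of a member. Without the block and with 2 arrays per group, intervals of the members are wide, and the gap between replicates enters their spread. The SE of the members then ran from 0.184 (Elovl5) to 0.594 (Fads3), against 0.126 (Elovl4) to 0.148 (Elovl1) with the block. Dim probes such as those of Elovl4 lie near background. The planned comparison of protein sequences was not run.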

Other observations

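Fads1, Fads2 and Fads3 lie side by side on chromosome 19, and the protein-coding genes around them were looked at after the values of the members were known. In RefSeq's order the run is Fth1, Best1, Rab3il1, Fads3, Fads2, Fads1, Fen1, Tmem258 and Myrf. Of the 6 neighbours, 5 were measured and Best1 was not. In 0 of these 5 did the GW3965 arrays separate from the DMSO arrays, where 9.41% of all genes lay wholly higher and 6.55% wholly lower. Their differences were -0.15 for Fth1 (ferritin heavy chain), -0.14 for Rab3il1, -0.17 for Fen1 (a flap endonuclease of DNA replication), -0.11 for Tmem258 and 0.09 for Myrf on the log2 scale. The differences of Fads2 and Fads1, at 0.75 and 0.33, were above those of each measured neighbour, and that of Fads3, at -0.07, lay among them; no test of this difference was made.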
